A study of Mus musculus with 33 samples.

Results

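VK-JK recombination was compared between small pre-B cells of Wapl+/+ mice (4 libraries) and of Wapl∆P1,2/∆P1,2 mice (4 libraries), which are all 8 Igk VDJ-seq libraries of pre-B cells among the 33 samples of the series. Both genotypes were on the C57BL/6 background, and mice of both sexes were used at an age of 4 to 5 weeks. The pre-B cells were sorted by surface markers from bone marrow without culture. In the Wapl∆P1,2/∆P1,2 mouse, 2 elements to which the B-cell transcription factor Pax5 binds have been removed, P1 at the promoter of Wapl and P2 on its 3′ side. The deletion is carried in all cells, so that it was also present before the pre-B stage. The files hold 1 value per VK gene and library and no marker genes, so that neither the cell type nor the Wapl level could be checked in them.

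Wapl releases the ring complex cohesin from DNA and thereby limits how far cohesin can extend chromatin loops. At the Igk locus, the RAG recombinase joins 1 of many VK genes, which encode most of the variable region of the kappa light chain and are spread over a long stretch of chromosome 6, to a JK element. A VK gene in forward orientation, the orientation of the JK elements, is joined by deletion of the DNA in between, and a VK gene in reverse orientation by its inversion. RAG cuts at recombination signal sequences (RSSs), each made of a heptamer and a nonamer around a spacer, and an RSS with a 12-base spacer is paired with an RSS with a 23-base spacer. In Igk, the VK genes carry the short and the JK elements the long spacer.

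The RSSs that the results turn on were read from the mm9 genome just downstream of the VK genes and are printed 5′ to 3′ with the heptamer and the nonamer in capitals. They comprise the RSS of JK1, the distance to which orders the genes below, 8 of the 12 that are shared by several tested VK genes, and those of strongly changed genes. The consensus is CACAGTG for the heptamer and ACAAAAACC for the nonamer, and the JK1 RSS has the reverse complement of both.
JK1: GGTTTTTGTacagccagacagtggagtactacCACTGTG
8 tested genes of the V3 family, among them IGKV3-2, IGKV3-7, IGKV3-10 and IGKV3-12: CACAGTGctccagggctgaACAAAAACC
13 tested genes of the V4 family, among them IGKV4-77 and IGKV4-86: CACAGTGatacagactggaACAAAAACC
7 tested genes of the V6, V7 and V8 families, among them IGKV8-16, IGKV6-32 and IGKV7-33: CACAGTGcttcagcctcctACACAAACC
5 tested genes of the V12 family, among them IGKV12-40 and IGKV12-44: CACAGTGattcaagccatgACATAAACC
IGKV10-94, IGKV10-95 and IGKV10-96: CACAATGatataagtcataACATAAACC
IGKV9-120 and IGKV9-123: CACAGTGatacaaatcataACATAAACC
IGKV11-125 and IGKV14-130: CACAGTGatacaagtcataACATAAACC
IGKV17-121 and IGKV17-127: CACAGTGctatgtcctcttACAGAAACC
IGKV1-88: CACAGTGatttataccccaACAAAAACT
IGKV4-92: CACAGTGctacagagtggaACAAAATGC
IGKV1-122: CACAGTGatgcagaccctaACAAAAACA
IGKV1-132: CACAGTGatacagaccctaTCAAAAACT
IGKV1-133: CACAGTGatacagactctaTCAAAAACT

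All values below are percentages of the VK-JK joints of a library, obtained by dividing each deposited normalised value by the sum over all 163 VK genes. These sums ranged from 4.87 to 6.77 in Wapl+/+ libraries and from 4.89 to 6.60 in mutant libraries. Low values were steps of a library-specific unit, and a library held 41076 to 56642 such units in Wapl+/+ and 27178 to 56236 in the mutant. With these units taken as counts, the chi-square per degree of freedom was 1.66 to 10.8 for pairs of libraries of the same genotype, a measure that sets the spread between libraries against counting noise alone. The distance between 2 libraries, the summed gains of all genes that were higher in one of them, was 2.93 to 4.71 percentage points among Wapl+/+ libraries and 5.13 to 9.23 among Wapl∆P1,2/∆P1,2 libraries. Across genotypes it was 9.67 to 18.0 points. Against the mean of the Wapl+/+ libraries, Wapl∆P1,2/∆P1,2 library 1 was the closest (10.2 points), followed by libraries 3 (12.8), 2 (16.4) and 4 (16.8). The SD between libraries was larger in the mutant for 78 of 107 genes, and the median coefficient of variation was 12.7% in the mutant and 6.08% in Wapl+/+.

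Of the 163 VK genes, 114 were above 0 in all 8 libraries and 46 were at 0 in all 8. A mean of at least 0.05% was reached by 107 genes, including all 92 genes listed as functional, and these were tested with limma on log2(percentage + 0.05), so that a fold change understates the change of a low gene. At an adjusted p-value (Benjamini-Hochberg) below 0.05, 72 of them (67.3%) changed. The recombination frequency rose in mutant pre-B cells for 23 genes (21.5%) and fell for 49 (45.8%). The filter used the mean of all 8 libraries. IGKV3-3, among the 23, was below it in Wapl+/+ (0.0388%) and was tested only through its higher mutant values. The 2 groups of libraries did not overlap for 63 genes (58.9%). Only 7 of the 72 changes exceeded 2-fold on this scale, and over the tested genes the log2 fold change had a median of -0.18. Together, the raised genes gained 12.3 percentage points, to 35.3% of the joints in mutant cells, while the lowered genes went from 43.3% to 30.9%, and the genes that did not pass from 33.5% to 33.7%. As the percentages of a library add up to 100, a gain of some genes must be matched by a loss of others. In simulated data, a change of many genes also led to calls of unchanged genes. Of the 72 genes, 55 passed the test whichever of the 8 libraries was left out (19 raised and 36 lowered). With Holm's adjustment 44 genes passed (16 raised and 28 lowered), and 48 (17 and 31) for deposited values without rescaling. The libraries fall into 2 series by their experiment numbers, both with 2 libraries of each genotype, and all 72 genes had the same sign of change within each series. These genes were called on the same 8 libraries, which favours such an outcome. IGKV4-52 and IGKV4-54 had identical values in all 8 libraries, so that the 107 genes contain 1 duplicate.

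The changes were arranged in blocks along the locus. Ordered by their distance from JK1, the tested genes fell into 21 runs of neighbours with the same sign of change. The 7 runs with at least 5 changed genes held 60 of the 72. Of the runs of raised genes, only the 2 longest held more than 1 changed gene. The first comprised the 9 tested V3 genes closest to JK (18.7 to 204 kb), of which 6 rose. The 6 include IGKV3-3, which passed the filter only through its mutant values. The second stretched over 428 kb from IGKV4-78 to IGKV10-96, where 15 of 17 tested genes passed as raised. As runs were defined by sign, no gene in it could be lowered. The summed share of this stretch, chosen in that way, was 17.6% in Wapl+/+ and 26.5% in mutant cells. Of its tested genes, 15 are in reverse and 2 in forward orientation.

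**Figure D1:**
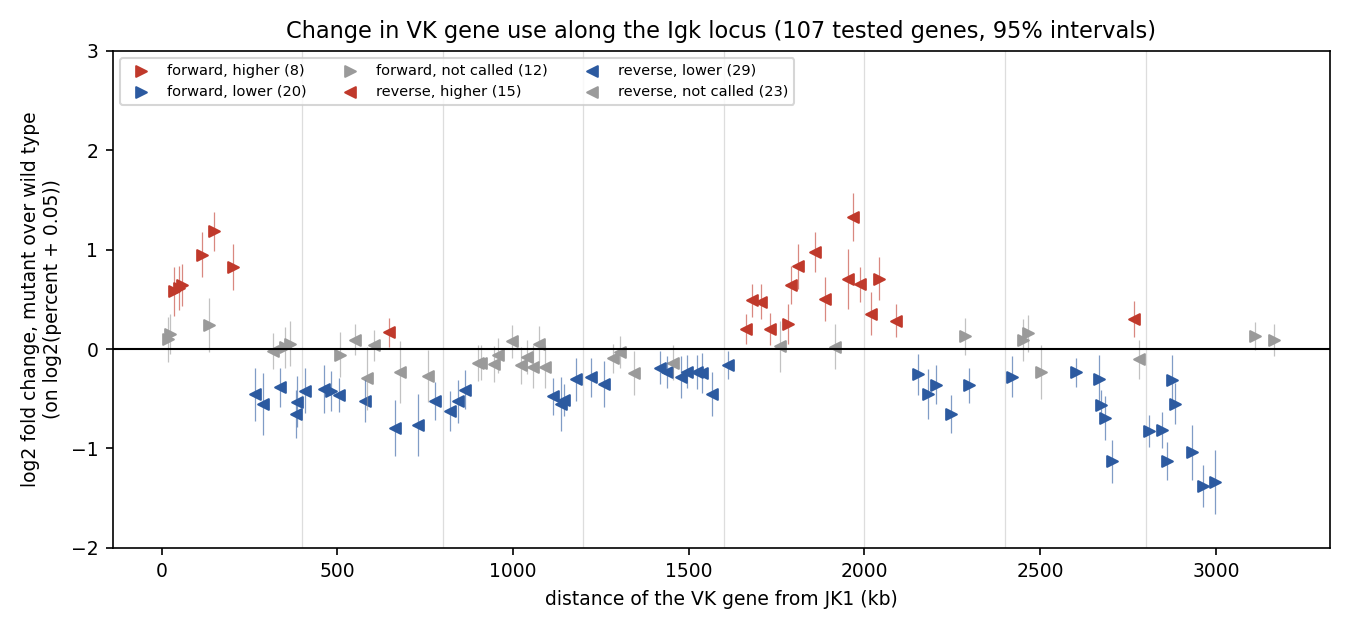
Log2 fold change (mutant over Wapl+/+, on the log2(percentage + 0.05) scale) of the 107 tested VK genes against their distance from JK1 in kb, with vertical lines for 95% intervals and triangles pointing right for forward and left for reverse genes. Red genes rose, blue genes fell and grey genes did not pass the test; the raised genes lie mostly below 204 kb and between 1663 and 2090 kb.

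As runs were defined by sign, neighbours at their edges differ in sign by construction, and only the size of the step is described here. IGKV3-12, the last of the raised proximal genes, and IGKV6-13, which fell, are 60.8 kb apart, with log2 fold changes of 0.83 and -0.45. IGKV4-77 and IGKV4-78, 51.2 kb apart and both in reverse orientation, had values of -0.16 and 0.20. On the far side, IGKV10-96 (0.29) and IGKV12-98 (-0.25) are separated by 61.2 kb. The last 2 steps were no larger than some within the central block, such as that from IGKV4-90 (0.02) to IGKV4-91 (0.70). Between the 2 raised blocks, genes mostly fell, as did those from IGKV12-98 to IGKV1-133, and the strongest losses were at the distal end between 2705 and 2997 kb. The most distal tested genes, IGKV1-135 and IGKV2-137, lie beyond a gap of 115 kb and did not pass the test.

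In windows of 400 kb counted from JK1, 6 of 8 window sums passed the two-sided exact permutation test (adjusted p = 0.0381, n = 4 and 4), and in all 6 the groups did not overlap. The smallest p this design allows is 0.0286. The window from 1600 to 2000 kb rose from 15.4% ± 0.50 (SD, n = 4) to 22.5% ± 2.2. Its mutant libraries were at 20.1%, 23.7%, 21.2% and 24.8%, in the order of their numbers, all above the Wapl+/+ libraries (14.8% to 16.0%), and the gain was 6.17 and 7.96 percentage points within the 2 series of experiment numbers. Of the 15 tested genes in it, 12 rose and 1 fell. The sums fell in the windows from 400 to 800 kb (12.7% to 11.0%), 800 to 1200 kb (17.9% to 15.2%), 1200 to 1600 kb (11.5% to 9.97%), 2400 to 2800 kb (12.4% to 10.4%) and 2800 to 3200 kb (11.4% to 8.98%). The window from 2000 to 2400 kb did not pass (8.32% and 9.19%, adjusted p = 0.0857). Without any 1 of the Wapl+/+ libraries, 0 of the 8 window sums passed, and without 1 mutant library, 6 or 7 passed. With 1 library left out the test has fewer splits and coarser p-values. These counts therefore do not show how stable the differences are. The differences themselves kept their sign in all 8 windows over the fits without 1 library. They were 6.27 to 7.85 percentage points from 1600 to 2000 kb and -2.50 to -2.28 from 2800 to 3200 kb. They moved more from 800 to 1200 kb (-3.17 to -2.25) and from 2000 to 2400 kb (0.49 to 1.06).

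**Figure D2:**
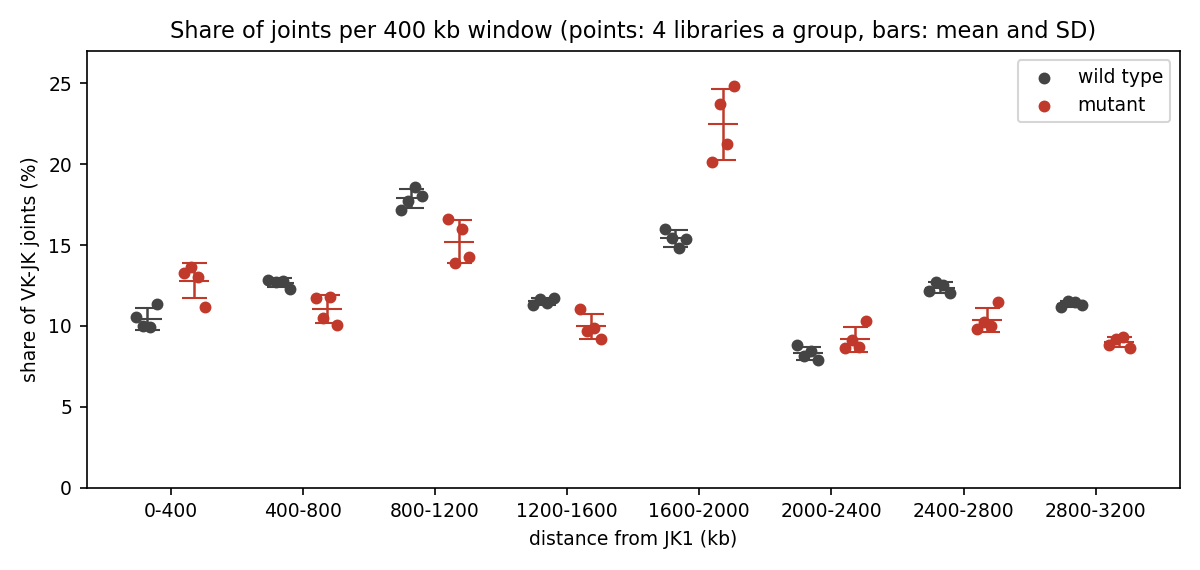
Share of VK-JK joints in percent for 8 windows of 400 kb, against the distance from JK1. Points are the 4 libraries of each genotype and bars the mean and SD; the mutant libraries lie above all Wapl+/+ libraries at 1600 to 2000 kb and below them in 5 other windows.

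In the window closest to JK1, the sums of the 2 orientations moved in opposite directions, but the orientations mostly lie apart. Of its 11 tested forward genes, 9 form the block of V3 genes at 18.7 to 204 kb, while its 6 tested reverse genes lie between 265 and 386 kb. The first window as a whole (10.4% and 12.8%) did not pass (exact permutation test, adjusted p = 0.0653). Its forward genes increased from 6.50% ± 0.62 to 9.77% ± 0.86, and its reverse genes decreased from 3.94% ± 0.091 to 3.02% ± 0.42 (adjusted p = 0.0321 for each, exact permutation over 9 sums). Without any 1 of the Wapl+/+ libraries, 0 of the 9 sums passed, while the differences were 2.92 to 3.62 percentage points for the forward and -1.06 to -0.75 for the reverse genes over the fits without 1 library. The test has fewer splits in these fits, so that the lost calls do not show how stable the differences are. Among single genes of this window, 6 of 11 forward genes rose and none fell, and 5 of 6 reverse genes fell. The 6 include IGKV3-3, which passed the filter only through its mutant values. All 6 raised forward genes were V3 genes, however, whereas the forward genes IGKV6-17 and IGKV8-18, which lie between lowered reverse genes, had log2 fold changes of 0.02 and 0.05 and did not pass. Orientation could thus not be separated from position and family here, nor farther away, since the tested genes are nearly all reverse in the windows from 800 to 2000 kb and mostly forward beyond 2000 kb. Over the whole locus, forward genes took 37.9% ± 0.20 of the joints in Wapl+/+ and 36.5% ± 0.97 in mutant cells (exact permutation p = 0.0571, or 0.0286 without mutant library 2), with 8 of 40 tested forward genes raised and 20 lowered. Of 67 tested reverse genes, 15 rose and 29 fell.

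Among the 9 tested V3 genes, which are all in forward orientation, the change was smallest next to JK. IGKV3-1 and IGKV3-2, the genes next to JK, did not pass (log2 fold changes 0.10 and 0.15). IGKV3-2 (chr6:70648462-70649061) was at 1.55%, 1.53%, 1.39% and 1.74% in Wapl+/+ and at 1.85%, 1.98%, 1.47% and 1.64% in mutant libraries, so that the groups overlapped. IGKV3-7 (chr6:70557431-70558030) was at 0.782%, 0.711%, 0.711% and 0.891% in Wapl+/+ and at 1.51%, 1.83%, 1.61% and 1.24% in mutant libraries (log2 fold change 0.95, SE 0.11, adjusted p = 1.23e-06). The groups did not overlap. The next gene, IGKV3-9, was low (0.0559% ± 0.012 and 0.0757% ± 0.019) and did not pass (0.24), whereas the gene after it rose without overlap.
IGKV3-10 (chr6:70522627-70523224) gave 0.659%, 0.593%, 0.574% and 0.738% in Wapl+/+ and 1.34%, 1.70%, 1.54% and 1.48% in mutant libraries (1.18, SE 0.094, adjusted p = 3.54e-08). It rose from rank 64 to rank 18 of all VK genes. For IGKV3-12 (chr6:70468244-70468843), values of 0.757%, 0.644%, 0.715% and 0.880% compared with 1.24%, 1.44%, 1.65% and 1.15% (0.83, SE 0.11). IGKV3-10 is 97.7% identical to IGKV3-5, and reads could be split between them, although both rose.

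The central block held the most raised gene of the locus and the gene ranked second in both genotypes. IGKV4-92 (chr6:68705032-68705587, reverse) was at 0.464%, 0.454%, 0.463% and 0.414% in Wapl+/+ and at 1.05%, 1.35%, 0.984% and 1.50% in mutant libraries (log2 fold change 1.33, SE 0.11, adjusted p = 5.78e-08). Its neighbour IGKV19-93 (chr6:68686291-68686758), the only member of its family, increased from 3.14%, 2.99%, 2.79% and 2.83% to 4.06%, 4.74%, 4.35% and 5.51% (0.65, SE 0.085). In percentage points this was the largest gain among the named genes. IGKV1-88 (chr6:68812259-68813025) went from 1.42%, 1.51%, 1.30% and 1.38% to 2.25%, 3.20%, 2.90% and 2.95% (0.98, SE 0.095) and from rank 25 to rank 3.
Within the block, changes were uneven. IGKV4-90, chosen after its values were seen, lies between IGKV1-88 and IGKV4-92 and was at 0.133% and 0.135% (log2 fold change 0.02, SE 0.11). IGKV10-95 (forward) rose by 0.70 and its reverse neighbours IGKV10-94 and IGKV10-96 by 0.36 and 0.29. In IGKV10-95 the increase was uneven between mutant libraries as well, with 1.78% and 1.95% in libraries 1 and 3 and 2.44% and 2.59% in libraries 2 and 4, against 1.22% to 1.39% in Wapl+/+. IGKV10-94 and IGKV10-95 are near-identical, and reads could be split between them.

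**Figure D3:**
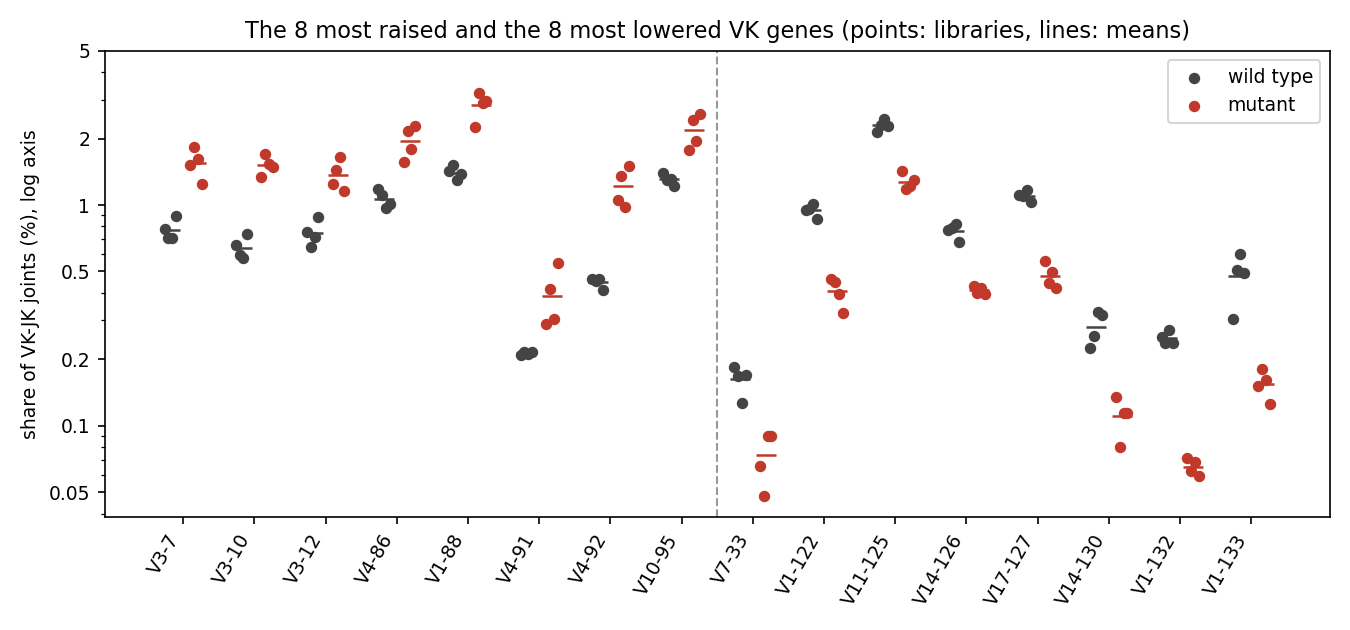
Share of VK-JK joints in percent on a log axis for the 8 raised genes (left of the dashed line) and the 8 lowered genes (right) with the largest log2 fold changes among genes without overlap between the groups. Points are libraries and lines the means of 4; 7 of the 8 lowered genes lie between IGKV1-122 and IGKV1-133.

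The distal genes from IGKV9-124 to IGKV1-133, a run that was itself defined by its sign, held 6.17% of the joints in Wapl+/+ and 3.25% in mutant cells. In this run, 8 of 9 tested genes passed as lowered. IGKV11-125 (chr6:67863567-67864046, forward) was at 2.15%, 2.30%, 2.45% and 2.27% in Wapl+/+ and at 1.42%, 1.18%, 1.22% and 1.29% in mutant libraries (log2 fold change -0.82, SE 0.077, adjusted p = 1.32e-07). It dropped from rank 3 to rank 34. IGKV17-127 (chr6:67811153-67811653) fell from 1.11%, 1.10%, 1.17% and 1.03% to 0.557%, 0.442%, 0.498% and 0.421% (-1.13, SE 0.092), and its near-identical partner IGKV17-121 fell as well (-0.70).
The lowest fold changes were those of IGKV1-132 (chr6:67709694-67710407) and IGKV1-133 (chr6:67674908-67675655), whose means went from 0.249% ± 0.016 to 0.0653% ± 0.0056 and from 0.476% ± 0.12 to 0.155% ± 0.023. The groups did not overlap for either gene. IGKV9-123, a reverse gene chosen after its values were seen, rose amid these losses, from 0.471% to 0.534% in Wapl+/+ to 0.584% to 0.659% in mutant libraries (0.30, SE 0.09, adjusted p = 0.00501). Beyond the gap, IGKV1-135 (chr6:67559739-67560502), the most used VK gene in both genotypes, was at 4.56%, 4.50%, 4.16% and 4.50% in Wapl+/+ and at 4.51%, 5.24%, 5.05% and 4.69% in mutant libraries (0.13, 95% interval -0.01 to 0.28). IGKV2-137 was at 1.07% ± 0.041 and 1.14% ± 0.074 (0.09, 95% interval -0.07 to 0.25).

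Between the proximal and the central block, losses were smaller and many genes did not pass. IGKV7-33 (chr6:70008626-70009193) had the lowest log2 fold change of this region, close to that of IGKV18-36 (-0.76), with 0.185%, 0.168%, 0.127% and 0.170% in Wapl+/+ and 0.0658%, 0.0478%, 0.0902% and 0.0898% in mutant libraries (log2 fold change -0.79, SE 0.13, adjusted p = 7.32e-05). Only 15.4 kb away, IGKV6-32 (chr6:70024018-70024578) had slightly higher values in mutant libraries, with 1.81%, 1.77%, 1.78% and 1.61% against 2.00%, 1.90%, 1.96% and 2.01% (0.17, adjusted p = 0.0369), and passed in 4 of the 8 fits without 1 library. IGKV8-16 fell from 1.85% ± 0.066 to 1.41% ± 0.21. Of the frequently used genes of this region, IGKV12-44 (2.18% and 1.99%), IGKV5-43 (1.57% and 1.43%) and IGKV8-27 (1.64% to 1.98% and 1.83% to 2.07%) did not pass. IGKV5-43 is 97.3% identical to IGKV5-45.

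Some VK genes with an identical RSS changed in opposite directions. An RSS was found at the listed end of 134 of the 162 VK genes with coordinates, including all 92 functional genes. Of the 103 tested genes with an RSS, 52 shared all 28 bases with at least 1 other tested gene, in 12 groups, of which 4 contained both raised and lowered genes. In 5 groups all tested genes had the same result, for example raised for IGKV10-94 to IGKV10-96 and lowered for IGKV17-121 and IGKV17-127. The RSS of the V4 group printed above is carried by 13 tested genes, of which 8 fell, 1 rose and 4 did not pass. The raised gene is IGKV4-86 in the central block (1.07% to 1.95%, log2 fold change 0.83, SE 0.11), while IGKV4-77, at its near edge, fell from 2.09% to 1.86% (-0.16, SE 0.068, adjusted p = 0.042). In the group of V6, V7 and V8 genes, 4 fell, 1 rose and 2 did not pass. IGKV9-120 fell (2.02% to 1.35%, -0.56), whereas IGKV9-123 with the same RSS rose.

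**Figure D4:**
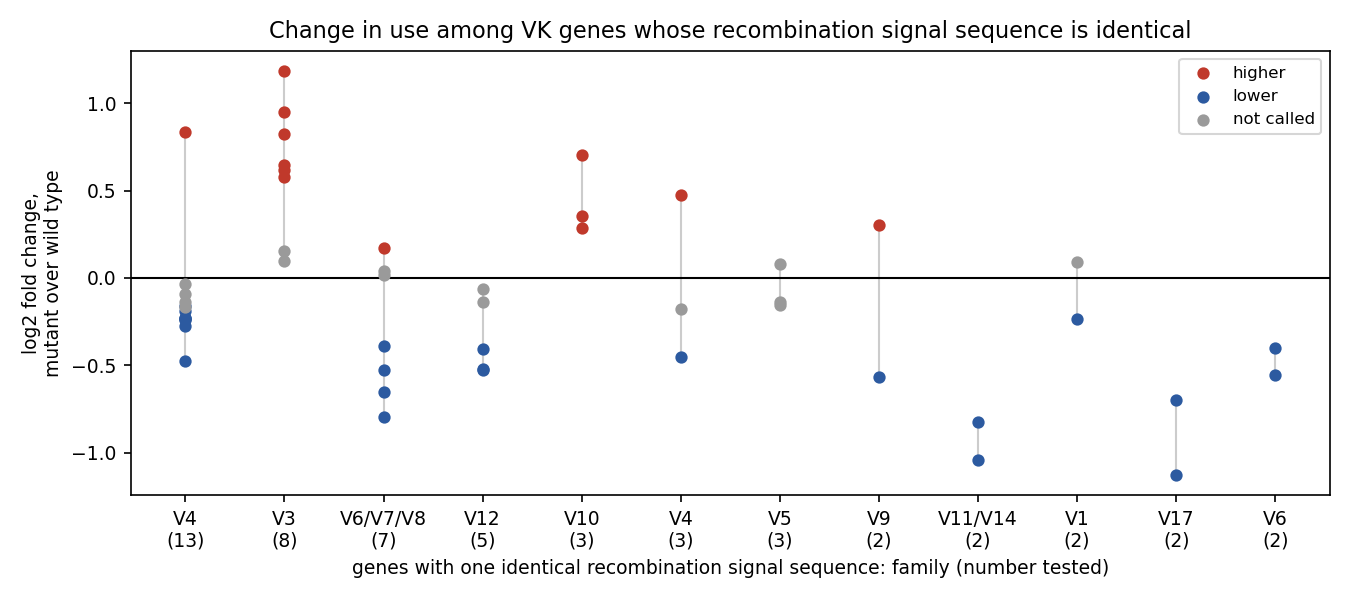
Log2 fold change (mutant over Wapl+/+) of 52 tested VK genes that share an identical RSS of 28 bases with another tested gene, in 12 groups named by family with the number of tested genes. Red genes rose, blue genes fell and grey genes did not pass; 4 groups hold both red and blue genes, and the 13 genes of the first group range from -0.47 to 0.83.

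An identical RSS also went with very different use in Wapl+/+ cells. The 8 V3 genes ranged from 0.0388% (IGKV3-3) to 1.55% (IGKV3-2), and the 5 V12 genes of 1 group from 0.396% to 2.18%. Among functional genes, the median percentage over the 8 libraries was 1.04% for the 32 genes whose heptamer and nonamer match the consensus, 0.795% for the 37 with 1 mismatch and 0.834% for the 22 with 2. Both matched in 12 of 23 raised genes (52.2%), 14 of 46 lowered genes with an RSS (30.4%) and 10 of 34 that did not pass (29.4%). Over all 92 functional genes the share was 34.8%. Of the 12 raised genes, 6 are V3 genes with the same RSS, so that the genes are not independent here either. IGKV4-92, the most raised gene, has 2 mismatches, as do IGKV1-132 and IGKV1-133.

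An octamer (ATTTGCAT, read on both strands), the element of VK promoters that Oct proteins bind, was present in 300 bases (250 before and 50 after the listed start) in 21 of 23 raised genes (91.3%), 31 of 49 lowered genes (63.3%) and 23 of 34 that did not pass (67.6%). It was found in 67 of the 92 functional genes (72.8%), which include all raised genes. Over all VK genes with coordinates the share was 58.0%, lowered by the genes that were not tested (33.9%). Of 32851 RefSeq promoters of the same length (GRCm38.p6), 1.74% had it. Neighbouring genes of a family share promoter sequence, so that the genes are not independent here. H3K27ac, a mark of active promoters and enhancers, was measured in Rag1(Cre/Cre) pro-B cells, a genotype other than the 2 compared here. Of its 3 peaks in the locus, 1 lies within 10 kb of IGKV3-1 and IGKV3-2 and 1 within 10 kb of IGKV8-34, and none of these genes passed the test.

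Of the 20 VK families, 15 changed in their summed share (exact permutation test, adjusted p = 0.0381), 4 upwards and 11 downwards. Without any 1 of the Wapl+/+ libraries or without mutant library 2, 0 of the 20 passed, but the test has fewer splits in these fits. The differences ranged from 2.88 to 3.52 percentage points for V3, 1.44 to 1.93 for V19 and -1.23 to -1.09 for V17. They moved more for V12 (-0.93 to -0.55), and for V4, which did not pass, they changed sign (-0.15 to 0.48). The raised families were V3 (5.31% ± 0.56 to 8.55% ± 0.80), V10 (4.31% ± 0.37 to 5.93% ± 0.62), V13 (1.68% ± 0.12 to 2.39% ± 0.28) and V19 (2.94% ± 0.16 to 4.66% ± 0.63). The tested genes of V3 lie in the proximal and those of the other 3 in the central block. The steepest losses were those of V7, V18 (0.227% to 0.115%), V17 (2.50% to 1.33%), V11 (2.29% to 1.28%) and V20 (0.450% to 0.268%). Of these, V7, V18 and V20 have 1 gene each (IGKV7-33, IGKV18-36 and IGKV20-101-2), and V11 has 1 tested gene (IGKV11-125). Families V5, V8, V9, V12, V14 and V16 (1 gene) fell as well, V8 from 11.1% to 9.23%.
The largest family, V4, held 26.7% ± 0.34 of the joints in Wapl+/+ and 26.9% ± 0.80 in mutant cells (exact permutation, adjusted p = 0.743), but its members moved in both directions. The 7 raised V4 genes lie between 1663 and 1967 kb from JK1 and the 14 lowered ones between 1115 and 1611 kb. The raised members went from 6.46% to 9.60% of the joints and the lowered ones from 13.2% to 10.7%. In V1, similarly, IGKV1-88 rose and 5 genes fell, and the family total (11.5% and 12.1%) did not pass, nor did those of V2, V6 and V15.

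**Figure D5:**
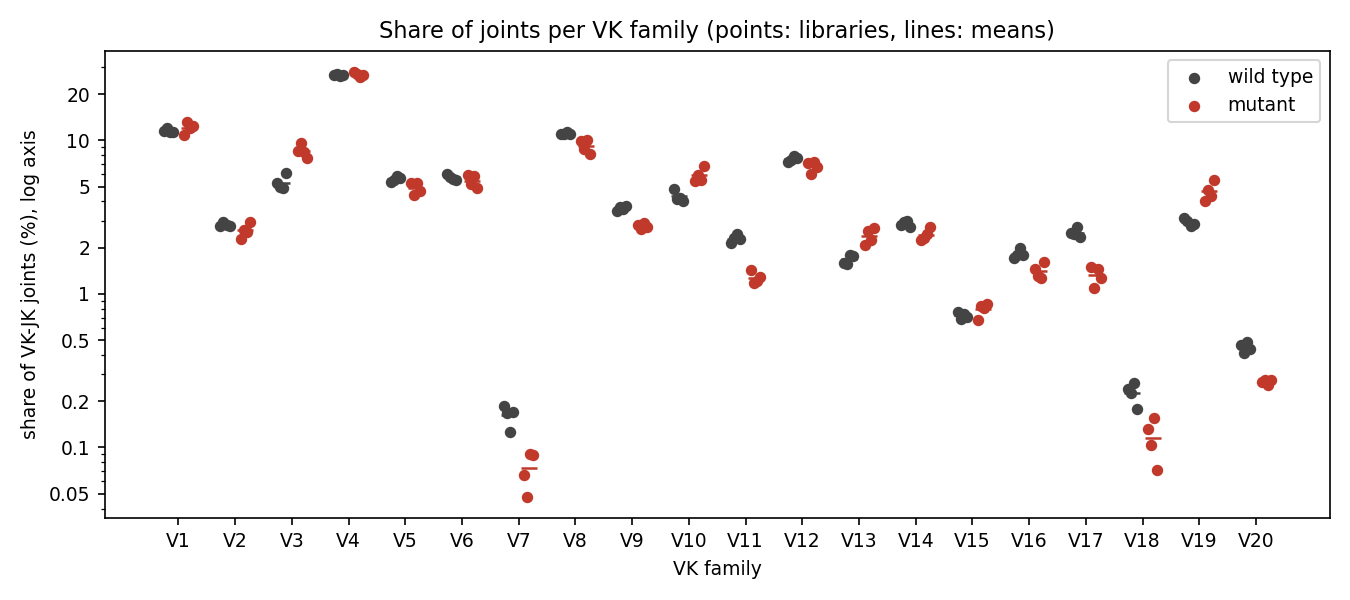
Share of VK-JK joints in percent on a log axis for the 20 VK families, with points for the 4 libraries of each genotype and lines for their means. The mutant libraries lie above all Wapl+/+ libraries for V3, V10, V13 and V19, and the 2 groups overlap for V1, V2, V4, V6 and V15.

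Genes that are not listed as functional took a smaller summed share in the mutant. The 71 VK genes listed as pseudogenes, open reading frames or of unknown class took 9.19%, 8.97%, 8.98% and 8.97% of the joints in Wapl+/+ and 7.60%, 7.15%, 7.14% and 6.55% in mutant libraries. The share of each of the 3 classes fell without overlap (exact permutation p = 0.0286 each, the smallest possible; adjusted p = 0.0286), namely pseudogenes from 5.19% to 3.95%, open reading frames from 3.39% to 2.90% and genes of unknown class from 0.450% to 0.268%. The last 2 sums rest on single genes. Of the 5 open reading frames that were tested, only IGKV8-23-1 fell, by 0.467 of the 0.487 percentage points that this class lost, and the whole share of the unknown class is that of IGKV20-101-2. Of the 15 that were tested, 10 fell and none rose, compared with 39 and 23 of the 92 functional genes. In the 5 windows whose sums fell, the sums of functional and of non-functional genes were both lower. From 1600 to 2000 kb, functional genes went from 13.2% to 20.5% and non-functional genes from 2.20% to 1.97%, and from 2000 to 2400 kb from 7.14% to 8.12% and from 1.17% to 1.07%. The sums of non-functional genes rest on 1 to 4 tested genes per window, and the difference between the classes was not tested within windows.
The most used pseudogene, IGKV4-77 (chr6:69060898-69061426), was at 2.21%, 2.12%, 1.97% and 2.05% in Wapl+/+ and at 1.87%, 1.93%, 1.82% and 1.81% in mutant libraries, and passed in 3 of the 8 fits without 1 library. The open reading frame IGKV8-23-1 (chr6:70190421-70190704) decreased from 1.84% ± 0.075 to 1.38% ± 0.21 (log2 fold change -0.42, SE 0.095, adjusted p = 0.0011). No RSS was found at the listed end of IGKV8-23-1 or of the pseudogene IGKV14-126. A search of 300 bases beyond that end with at most 3 mismatches found none for these genes. The pseudogenes IGKV14-126 (0.762% to 0.411%, -0.81) and IGKV12-40 (0.800% to 0.545%, -0.53) fell as well, whereas the open reading frame IGKV15-103 (0.723% and 0.796%) did not pass. The joints were read from genomic DNA, so that joints of non-functional genes were counted irrespective of expression.

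Of 5 measures of the distance and evenness of use, 0 passed after adjustment (exact permutation test) and 2 had an unadjusted p below 0.05. Without mutant library 1 or 4, 3 of them passed. The effective number of VK genes, the exponential of the Shannon entropy of the shares, was 82.0, 82.0, 82.3 and 82.6 in Wapl+/+ and 78.8, 74.6, 76.5 and 73.3 in mutant libraries. The groups did not overlap (exact permutation p = 0.0286, adjusted p = 0.0714 over the 5 measures). To reach 50% of all joints, 27.25 genes were needed on average in Wapl+/+ and 24.75 in mutant cells (adjusted p = 0.143, exact permutation). The 10 genes most used in Wapl+/+ took 23.8% ± 0.52 there and 23.1% ± 0.26 in mutant cells (adjusted p = 0.143, exact permutation), and their choice from the Wapl+/+ values favours a higher share in Wapl+/+. Of the 10 genes most used in each genotype's mean, 4 were shared. The mean distance of the joined VK gene from JK1 was 1544 kb ± 12.4 and 1516 kb ± 42.4 (exact permutation p = 0.257).

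The same genotype comparison was available in pro-B cells (6 libraries of each genotype), in which few VK genes have been rearranged. A limma interaction term over 106 genes called 2 (1.89%), at which the effect of the genotype differed between the cell types. At IGKV6-23 the log2 fold change was -0.40 in pre-B and -2.48 in pro-B cells, and at IGKV1-135 it was 0.13 and -0.85 (adjusted p = 0.011 for both). IGKV1-135 was at 4.43% and 4.87% in pre-B cells and at 11.3% ± 2.5 and 6.26% ± 1.3 in pro-B cells of Wapl+/+ and mutant mice. Without the pro-B Wapl+/+ library with the most genes at 0 (library 2), the term called 10 genes, and with array weights 19. The pro-B libraries held 164 to 6892 units, which limits the differences that could be detected.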

How the data were processed

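Igk VDJ-seq was performed by the authors on genomic DNA of sorted cells: sheared DNA received adapters with molecular identifiers, joints were captured by extension of JK primers and sequenced in pairs on a MiSeq instrument. They deposited normalised values (named normalised counts by the authors, treated here as a score because they are not whole and their total is not named) for 163 VK genes per library. How reads matching several genes were assigned is not given in the sources used here. IGKV4-52 and IGKV4-54 have identical values in all 8 libraries and are thus 1 measurement. Between 81% and 94% of the values above 0 of a pre-B library were whole units (within 0.01 units), and intervals that rest on such units would cover counting error only. The aligner and its version for these libraries are not given in the sources used here.

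Values were rescaled to 100 over all VK genes. Genes with a mean of at least 0.05% were tested with limma 3.58.1 (R 4.3.3, empirical Bayes trend) on log2(percentage + 0.05), two-sided, with Benjamini-Hochberg adjustment at 0.05. The study used unpaired t tests with Holm-Sidak correction. For sums, an exact permutation test (two-sided) over all splits of 4 against 4 libraries was used. The labels do not say whether libraries came from separate animals, and the study names them independent experiments. p-values measure the spread between these libraries. VK gene classes, names and coordinates follow the study's list on mm9, and IGKV4-52, listed without coordinates, was placed midway between its neighbours. An RSS was searched between 15 bases before and 30 after the listed gene end, with at most 7 mismatches to heptamer and nonamer. Near-identical genes had at least 97% identity over 90% of their length (blastn 2.17.0+). For H3K27ac, only the positions of the deposited peaks were used, since their score is the same for all. The Igh libraries were not used here, nor were Hi-C data.

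Genes named were taken from those the study discusses for these cells, the 8 raised and 8 lowered ones with the largest changes without overlap, the 10 most used in Wapl+/+, the most used of each family with at least 3 tested genes and the 5 most used non-functional genes. Not described above are IGKV4-79 (log2 fold change 0.49, raised), IGKV1-117 (-0.23, lowered), IGKV2-109 (-0.28, lowered) and IGKV14-111 (0.16, did not pass). These rules, the windows and the classes were chosen with earlier results of these data known. Other genes named, such as neighbours at block edges and near-identical partners, were chosen after their values were seen. The fit was tested on simulated data, in which a change of many genes also led to calls of unchanged genes, since shares add up to 100. Python 3.11.15, numpy 2.4.6, pandas 2.3.3 and scipy 1.17.1 were used, and alternatives comprised pseudocount, filter, scale, adjustment, weights, series of experiment numbers, near-identical genes and each library left out.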

Additional observations from a re-analysis of the deposited data

Results flagged for a closer look

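In the 146 groups of 4 libraries checked, 1 library lay apart from the other 3 in 7 groups, all of them Wapl+/+, and chance alone flags about 1 in 20 groups. IGKV10-96 was at 2.35% in Wapl+/+ library 1 and at 1.92% to 1.96% in the others. IGKV1-135 was at 4.16% in library 3, against 4.50% to 4.56%. Library 1 had 90.8% of its joints in functional genes, against 91.0% in the others. In library 3, family V4 was at 26.2% (26.8% to 26.9% in the others) and family V8 at 11.3% (11.0% to 11.1%). Library 4 had an SD of the distance from JK1 of 897 kb (889 to 890 kb in the others) and needed 28 genes for 50% of its joints (27 in the others).

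The genotype effect differed between pro-B and pre-B cells at IGKV6-23, by -2.08 on the log2 scale (95% interval -3.05 to -1.11), and at IGKV1-135, by -0.98 (-1.43 to -0.54), both with an adjusted p of 0.011 in limma.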

How the results depend on the processing

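No result changed its direction past the threshold. The number of changed genes was 72 with the reported settings and 44 (16 raised) with Holm's adjustment, 48 (17 raised) for deposited values without rescaling, 66 after centring on the median and 59 to 76 without 1 library. Without 1 library, 0 to 8 of the 9 orientation sums within windows passed, 0 to 16 of the 20 families, 0 to 7 of the 8 windows and 0 to 3 of the 5 measures of distance and evenness. The exact test has fewer splits in these fits and thus coarser p-values. With windows of 200 kb 12 sums passed, and with windows of 800 kb 3. Without the 2 most used genes, IGKV1-135 and IGKV19-93, 3 of the 5 measures of distance and evenness passed. The difference in the forward share was -1.43 points and ranged from -1.86 (without mutant library 2, where it passed) to -1.08. The interaction with cell type called 2 genes, 19 with array weights and 10 without the pro-B library with the most genes at 0. The causes were not tested. No paired analysis was possible because the labels give no replicate numbers shared between the genotypes. Mutant library 2 held the fewest units. Its distances to the other mutant libraries (5.83 to 7.72 points) lay within the range between mutant libraries (5.13 to 9.23).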
